A study of Mus musculus with 15 samples.

Results

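The 9 genes Sema3d, Tpbg, Tmem255a, Gpr101, Ecel1, Arhgap6, Rtp1, Xlr3b and Ngb were followed library by library through mouse brain RNA sequencing. They are 9 of the 46078 genes in the count table and of the 18974 that passed a filter on low counts, and all 9 passed it. They were chosen by their fitted differences: earlier fits of these data gave them low estimates in APP-PS1 mice treated with an anti-CD8a antibody. Their levels in treated against other mice are therefore a description, and no p value is given for them in those comparisons. They were brought together as neuronal genes, but the tissue was sequenced in bulk and the counts do not show which cells a transcript came from. A list of 9 transcripts that mark neurons in general, among them Snap25 and Syt1, had summed levels from 7380 to 8380 CPM in the 15 libraries, with overlapping group ranges. A list of 9 interneuron markers summed to 788 to 878 CPM in wild-type mice. Its sums were 680 to 766 CPM in APP-PS1 mice given PBS and 574 to 733 CPM in treated mice. All 9 had lower estimates in treated than in wild-type mice (median log2 fold change -0.23), as did 8 in PBS-given APP-PS1 mice (-0.12). Between the APP-PS1 groups 6 were lower and 3 higher (-0.09). CPM is a gene's count relative to all assigned counts of its library, with TMM scaling.

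The mice were 12 months old and fell into 3 groups of 5, each mouse giving 1 library. Wild-type (WT) mice were injected with PBS (100 µL), as was a group of APP-PS1 mice, and another group of APP-PS1 mice received the anti-CD8a antibody at 0.8 mg per injection. Treatment lasted 4 weeks with 10 injections. APP-PS1 mice, a model of amyloid deposition, carry the chimeric amyloid precursor protein Mo/HuAPP695swe and the mutant human presenilin PS1-dE9. A prion protein promoter directs both transgenes to neurons of the central nervous system. Both sexes were used, and RNA came from a dissected region of 1 brain hemisphere, not named in the sources used here. Controls received PBS and not another antibody, so binding to CD8a and the injection of antibody protein cannot be told apart in this comparison.

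The 9 proteins act at different places in a cell. Sema3d is a secreted class 3 semaphorin, a family that steers axons and vessels through neuropilin and plexin receptors. Tpbg, Gpr101, Tmem255a and Ecel1 are membrane proteins: a leucine-rich-repeat glycoprotein that dampens Wnt signalling, an orphan G protein-coupled receptor, a multi-pass protein, and a neuronal peptidase related to endothelin-converting enzymes. Arhgap6 switches off the GTPase RhoA, Rtp1 helps odorant receptors reach the cell surface, Xlr3b belongs to an X-linked family with imprinted members, and Ngb, neuroglobin, is the oxygen-binding globin of neurons.

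Of the 9 genes, 7 had a promoter sequence in RefSeq (GRCm38.p6), 10 promoters in all. Each was read as the 250 bases before a RefSeq start. Those of Sema3d, Gpr101 and Tpbg are shown because they are the ones that hold a motif of activity-regulated transcription among the 4 motifs searched on both strands. Capitals mark TGACG, the core of the cyclic AMP response element, written here as its reverse complement CGTCA, in Sema3d (chr5:12382916-12383165, plus strand) and Gpr101 (chrX:57503758-57504007, minus strand). In Tpbg (chr9:85842130-85842379, plus strand) they mark the AP-1 motif TGANTCA. Each line runs 5′ to 3′ and ends at the base before the start.
Sema3d: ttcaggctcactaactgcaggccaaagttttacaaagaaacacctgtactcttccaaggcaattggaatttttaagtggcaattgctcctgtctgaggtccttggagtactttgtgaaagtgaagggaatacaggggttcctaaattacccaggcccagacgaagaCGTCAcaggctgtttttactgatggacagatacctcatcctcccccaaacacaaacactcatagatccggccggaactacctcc
Gpr101: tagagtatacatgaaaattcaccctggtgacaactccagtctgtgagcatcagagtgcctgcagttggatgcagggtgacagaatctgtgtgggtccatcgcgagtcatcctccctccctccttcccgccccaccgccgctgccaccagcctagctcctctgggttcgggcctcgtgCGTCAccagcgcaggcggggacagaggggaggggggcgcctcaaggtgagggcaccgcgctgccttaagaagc
Tpbg: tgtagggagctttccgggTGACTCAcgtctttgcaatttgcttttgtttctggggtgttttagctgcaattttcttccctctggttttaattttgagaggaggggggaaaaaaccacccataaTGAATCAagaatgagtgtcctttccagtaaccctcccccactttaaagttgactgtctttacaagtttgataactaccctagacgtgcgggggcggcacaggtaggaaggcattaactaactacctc
The CGTCA run begins 84 bases before the start in Sema3d and 73 bases before it in Gpr101. Tpbg has AP-1 matches at 232 and 127 bases, and its other listed start has none. TGACG was present in 2 of the 10 member promoters and in 17.8% of 32851 promoters of the same length, and TGANTCA in 1 of the 10 and in 6.75%. The E-box CACGTG (6.02% of all promoters) and the TATA element TATAAA (12.4%) were in none of the 10, which says only that these letters are not in these windows.

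Libraries held between 17736524 and 36485809 counts assigned to genes, so that 3 counts correspond to 0.0824 to 0.166 CPM. App, which the transgene raises, was at 1260 ± 40.6 CPM in WT, 2710 ± 226 CPM in PBS-given and 2770 ± 266 CPM in treated APP-PS1 mice (SD, n = 5 each), as the labels say. Cd8a, the antibody's target, had 33, 42 and 53 counts over each group's libraries, in the same order. Ttr, the main choroid plexus transcript, was above 1000 CPM in WT replicates 3 and 5, APP-PS1 PBS replicates 2 and 5 and treated replicate 1. APP-PS1 PBS replicate 1 is labelled male and had the Xist and Y-linked levels of the females. WT replicate 5 stood apart from the other WT libraries for most of the 9 genes, as shown for each below.

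Per kilobase of exon, Tmem255a had the highest level of the 9 genes in WT mice, at 11.8 ± 1.08 CPM per kb (SD, n = 5). Gpr101 followed at 3.31 ± 1.07 CPM per kb. Tpbg (1.93), Sema3d (1.79), Ngb (1.42), Xlr3b (1.18), Rtp1 (1.16) and Ecel1 (1.02) lay close together, and each pair of neighbours in this order differed by less than the larger of their SDs. Arhgap6 was last at 0.678 ± 0.155 CPM per kb, also within the SD of Ecel1. In treated mice Tmem255a was still first at 9.33 ± 0.961 CPM per kb, and Rtp1 was last at 0.286 ± 0.115 CPM per kb, next to Xlr3b at 0.292 ± 0.223.

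Sema3d was highest in APP-PS1 mice given PBS and lowest in treated mice. Its WT libraries, replicates 1 to 5, had 17.7, 14.3, 15.0, 15.5 and 14.4 CPM. The APP-PS1 PBS libraries had 15.5, 19.3, 24.9, 18.2 and 21.7 CPM, and the treated ones 13.5, 14.1, 12.4, 11.3 and 11.8 CPM. Every treated library lay below every library of both other groups, although the highest treated value and the lowest WT value were close. The fitted log2 fold change of treated against PBS-given APP-PS1 mice was -0.66 (SE 0.11), a level 1.58-fold lower, and against WT it was -0.26 (SE 0.12). In bulk tissue, fewer cells that express a gene and less RNA per cell cannot be told apart, for this gene and for the others.

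Tpbg was lower by about as much against PBS-given as against WT mice. WT replicates 1 to 5 had 8.25, 7.90, 7.85, 9.11 and 3.88 CPM, PBS-given APP-PS1 mice 6.38, 8.69, 7.19, 7.47 and 6.40 CPM, and treated mice 4.07, 3.42, 3.00, 4.06 and 3.98 CPM. The treated and PBS-given APP-PS1 libraries did not overlap, and WT replicate 5 fell among the treated libraries. The log2 fold change was -0.96 (SE 0.18) against PBS-given APP-PS1 mice and -0.94 (SE 0.20) against WT mice. Without WT replicate 5 the estimate against WT became -1.29.

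Gpr101 had the same arrangement. Its levels in WT replicates 1 to 5 were 22.7, 18.1, 23.0, 17.2 and 8.66 CPM. In APP-PS1 mice they were 15.5, 15.3, 18.8, 20.0 and 18.4 CPM with PBS and 10.5, 7.42, 5.86, 9.77 and 9.26 CPM with the antibody. Again no treated library reached the lowest PBS-given one, and WT replicate 5 lay inside the treated range. Treated mice were 2.03-fold lower than PBS-given APP-PS1 mice (log2 fold change -1.02, SE 0.21) and 1.97-fold lower than WT mice (-0.98, SE 0.24). The group means were 17.9 ± 5.80, 17.6 ± 2.08 and 8.56 ± 1.89 CPM (SD, n = 5).

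Tmem255a, the most abundant of the 9 per kilobase, had the smallest change relative to PBS-given mice and little spread. WT replicates 1 to 5 had 53.5, 58.0, 55.0, 53.9 and 45.0 CPM, and APP-PS1 PBS replicates 56.3, 55.2, 57.4, 55.7 and 52.6 CPM. Treated replicates had 45.4, 39.4, 36.5, 41.1 and 47.0 CPM, below every PBS-given APP-PS1 library and, apart from WT replicate 5, below every WT library. The coefficient of variation in PBS-given APP-PS1 mice was 3.24%, the smallest of the 9 genes in any group. Its log2 fold change was -0.40 (SE 0.07) against PBS-given APP-PS1 mice and -0.36 (SE 0.08) against WT mice, and -0.48 against WT without WT replicate 5.

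Ecel1 stepped down from WT to PBS-given to treated mice, with overlap at each step. WT replicates 1 to 5 had 3.22, 3.08, 3.81, 1.99 and 5.77 CPM, the APP-PS1 PBS replicates 2.15, 2.19, 1.59, 2.75 and 2.10 CPM, and the treated replicates 2.14, 1.34, 0.775, 1.82 and 0.962 CPM. Here WT replicate 5 was the highest library, not a low one. The log2 fold change was -0.66 (SE 0.27) against PBS-given APP-PS1 mice and -1.50 (SE 0.28) against WT mice. Without WT replicate 5 and treated replicate 3 together, an alternative added after the values were seen, the estimate against WT was -0.90.

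**Figure D1:**
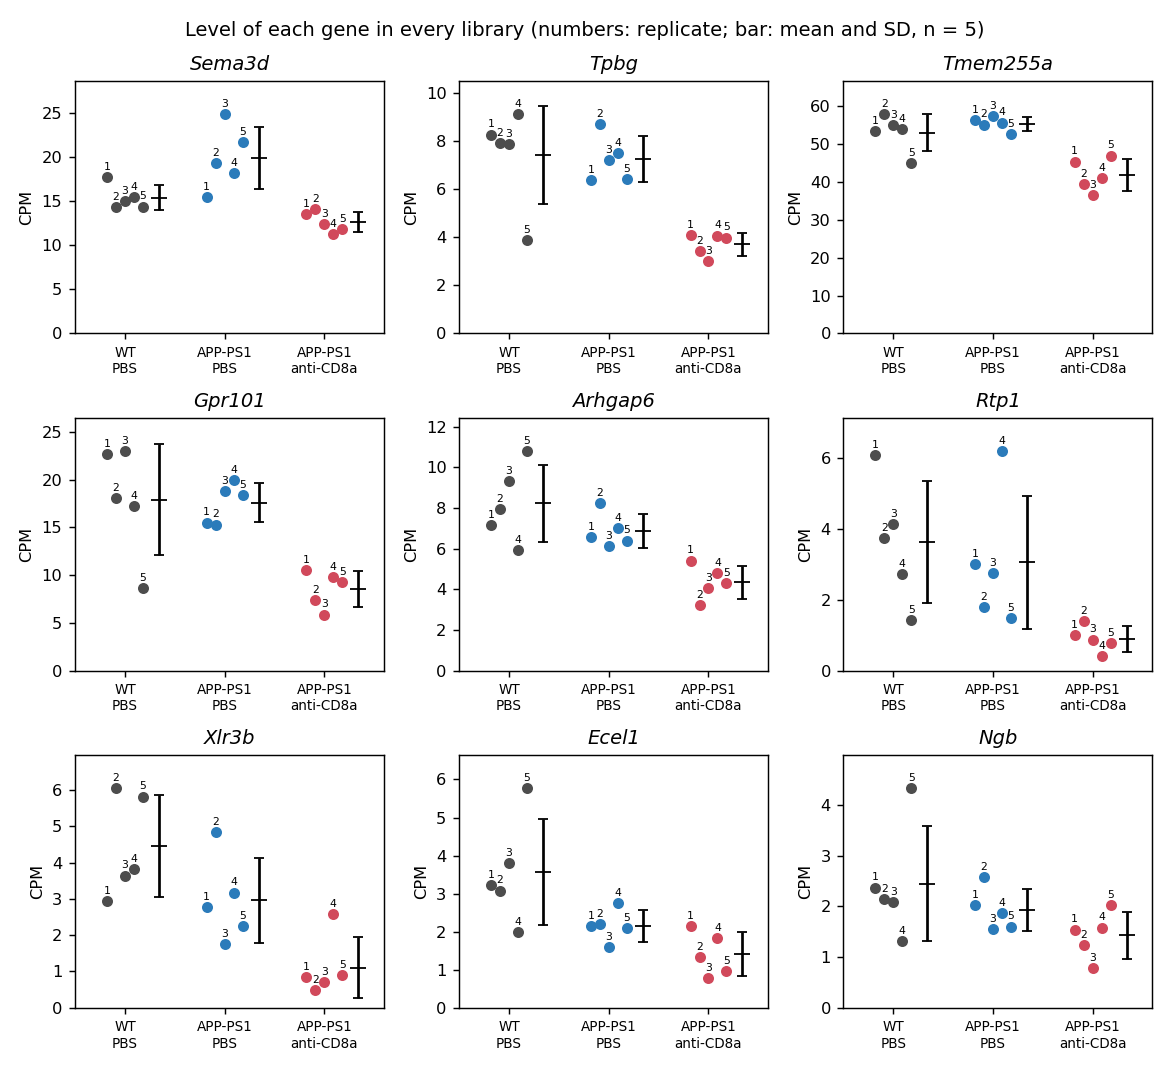
Level of each of the 9 genes in CPM (y axis, linear from 0) in every library of the 3 groups (x axis). Points carry the replicate number and the bars give the mean and SD of 5 mice. WT replicate 5 lies among the treated libraries for Tpbg and Gpr101 (3.88 and 8.66 CPM) and is the highest of all libraries for Arhgap6, Ecel1 and Ngb (10.8, 5.77 and 4.33 CPM).

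Arhgap6 had no overlap between treated and other mice. Its WT replicates 1 to 5 were at 7.17, 7.94, 9.33, 5.93 and 10.8 CPM, the APP-PS1 PBS replicates at 6.58, 8.23, 6.11, 7.02 and 6.40 CPM, and the treated replicates at 5.41, 3.22, 4.04, 4.78 and 4.29 CPM. The lowest library outside the treated group was WT replicate 4 and the highest inside it treated replicate 1. The log2 fold change was -0.68 (SE 0.14) against PBS-given APP-PS1 mice and -1.05 (SE 0.14) against WT mice. Another 4 annotated genes overlap its locus, among them Hccs and Amelx on the opposite strand and Gm27980 on the same strand. Whether the counting used strand is not stated, so how reads shared with the overlapping genes were counted is not known.

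Rtp1 had the largest fold difference between the APP-PS1 groups. WT replicates 1 to 5 had 6.07, 3.73, 4.13, 2.71 and 1.43 CPM and APP-PS1 PBS replicates 3.01, 1.80, 2.76, 6.19 and 1.49 CPM, a wide spread in both. Treated replicates had 1.00, 1.40, 0.876, 0.413 and 0.769 CPM, from 12 to 49 counts each. All treated libraries lay below all others, but treated replicate 2 was only just under WT replicate 5 and APP-PS1 PBS replicate 5. The log2 fold change was -1.79 (SE 0.36, 3.47-fold lower) against PBS-given APP-PS1 mice and -1.64 (SE 0.38) against WT mice.

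Xlr3b was lowest in treated mice, with a single exception. WT replicates 1 to 5 had 2.94, 6.05, 3.64, 3.81 and 5.82 CPM, the APP-PS1 PBS replicates 2.78, 4.84, 1.76, 3.17 and 2.26 CPM, and the treated replicates 0.834, 0.485, 0.707, 2.58 and 0.907 CPM. Treated replicate 4 lay within the PBS-given range, and the other 4 treated libraries lay below every other library. The log2 fold change was -1.51 (SE 0.35) against PBS-given APP-PS1 mice and -2.30 (SE 0.37, 4.93-fold lower) against WT mice, and without treated replicate 4 the former was -2.00. Xlr3b has near copies: 45.1% of its 75-base transcript windows also occur in other genes, 30.9% in Xlr3a and 20.7% in Xlr3c, so its counts are uncertain. Of the other 8 genes, only Arhgap6 shares any window (0.131%).

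Ngb overlapped between all 3 groups. Its WT replicates 1 to 5 were at 2.37, 2.14, 2.08, 1.31 and 4.33 CPM, the APP-PS1 PBS replicates at 2.02, 2.58, 1.55, 1.86 and 1.60 CPM, and the treated replicates at 1.54, 1.23, 0.775, 1.58 and 2.03 CPM. Treated replicates 4 and 5 were inside the range of both other groups and treated replicate 1 inside that of WT mice. WT replicate 4 was inside the treated range. The log2 fold change was -0.46 (SE 0.21) against PBS-given APP-PS1 mice and -1.03 (SE 0.22) against WT mice.

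Set against all genes, these counts show how the members were picked and support nothing further. Treated libraries lay below all PBS-given APP-PS1 libraries for 6 of the 9 genes (Sema3d, Tpbg, Tmem255a, Gpr101, Arhgap6 and Rtp1) and for 0.843% of the 18974 genes. They lay below all WT libraries for 4 (Sema3d, Arhgap6, Rtp1 and Xlr3b) and for 0.875% of all genes, and below both groups for 3 (Sema3d, Arhgap6 and Rtp1) and for 0.163%. In the comparison of both APP-PS1 groups, edgeR's quasi-likelihood test called 0% of genes and none of the 9 at an adjusted p of 0.05. At an unadjusted p under 0.05 it had all 9 on the lower side, with 5.74% of all genes, and DESeq2 called 7 of the 9 lower, with 0.529% of the genes it gave an adjusted p. Against WT mice edgeR called 8 of the 9 lower, with 0.184% of all genes lower, and DESeq2 called 8, with 0.549%. The edgeR count fell to 3 without treated replicate 3, and was 4 or 5 without treated replicate 2 or any of WT replicates 1 to 4.

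The third comparison, PBS-given APP-PS1 against WT mice, shares its libraries with both others, and its values are set beside them as a description. The 9 genes differed from each other in it. Tpbg, Tmem255a, Gpr101 and Rtp1 were level between the genotypes, with log2 fold changes of 0.02 (SE 0.20), 0.05 (SE 0.08), 0.05 (SE 0.23) and 0.16 (SE 0.35), and Sema3d was higher in APP-PS1 mice (0.40, SE 0.12). Arhgap6 (-0.37, SE 0.14), Ngb (-0.57, SE 0.21), Xlr3b (-0.79, SE 0.34) and Ecel1 (-0.83, SE 0.26) were already lower in PBS-given APP-PS1 than in WT mice. For Ecel1 and Ngb that step was the larger of the steps to the treated level. No gene of the 9 separated these 2 groups without overlap, against 1.06% of all genes with APP-PS1 below WT and 1.83% above it. In edgeR 0 of the 9 and 1.03% of all genes were called, 5 of the 9 had an unadjusted p under 0.05 (11.5% of all genes), and DESeq2 called 1, Sema3d, higher (1.94% of its genes). Most of these values depended on WT replicate 5. Without it, Tpbg (-0.32, SE 0.13), Gpr101 (-0.29, SE 0.16), Tmem255a (-0.08, SE 0.06) and Rtp1 (-0.07, SE 0.39) had estimates below 0. Those of Ecel1, Ngb and Arhgap6 shrank to -0.56 (SE 0.30), -0.35 (SE 0.24) and -0.28 (SE 0.17), so that for Ecel1 and Ngb the step between the APP-PS1 groups (-0.64 and -0.45) was then the larger, and Sema3d (0.38) and Xlr3b (-0.83) moved little.

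**Figure D2:**
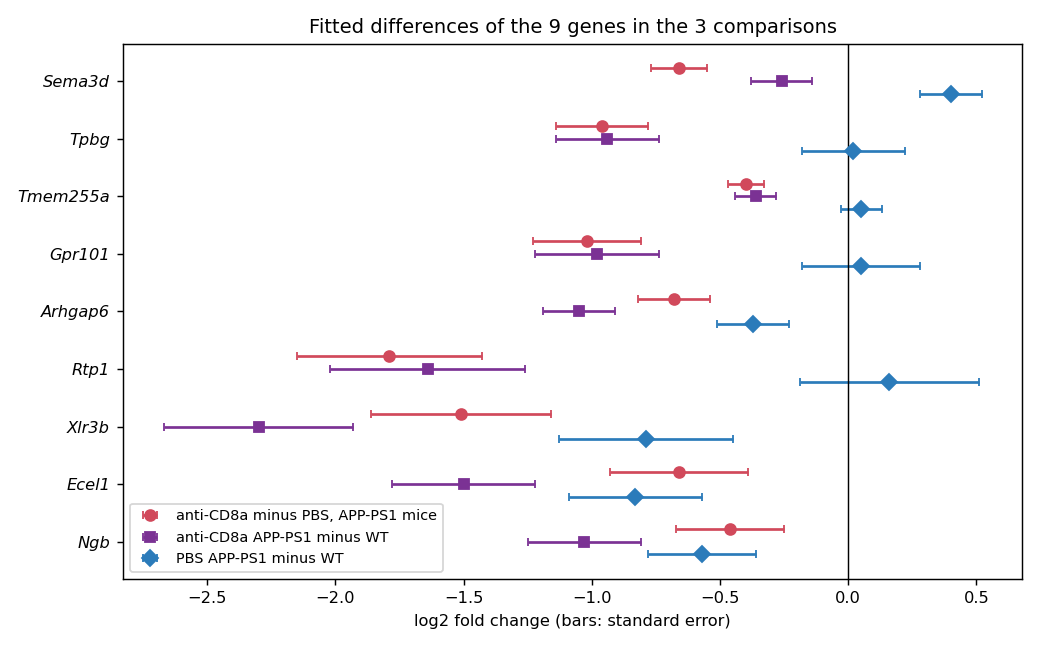
Fitted log2 fold change (x axis, bars give the standard error) of each gene in the 3 comparisons, from 1 model of 15 libraries. Red and purple estimates are all below 0, as the choice of genes fixed; blue diamonds lie near or above 0 for Sema3d, Tpbg, Tmem255a, Gpr101 and Rtp1 and below 0 for Arhgap6, Xlr3b, Ecel1 and Ngb.

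Some of the genes also varied together inside the groups. Deviations of log2 CPM from the group mean were compared over the 15 libraries for the 36 pairs of genes, as a description that shares depth and dissection. Gpr101 went with Tpbg (Pearson's r = 0.81) and Tmem255a (0.77), and Tpbg with Tmem255a (0.75). Arhgap6 went with Ecel1 (0.72) and Ngb (0.70), and Ecel1 with Ngb (0.68). Across the 2 sets r lay between -0.32 and 0.03 for these 6 genes. The separation of the 2 sets rested largely on WT replicate 5, low in the former set and high in the latter. Without it the 3 values of the former set were 0.55, 0.62 and 0.59 and those of the latter 0.65, 0.59 and 0.56, while r across the sets ran from 0.12 to 0.54, the highest being that of Tmem255a with Ngb. Sema3d did not go with the former set (r from 0.00 to 0.24). Sema3d and Xlr3b varied in opposite directions (-0.62, and -0.61 without that library), and Rtp1 was nearest to Gpr101 (0.47, and 0.20 without it).

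**Figure D3:**
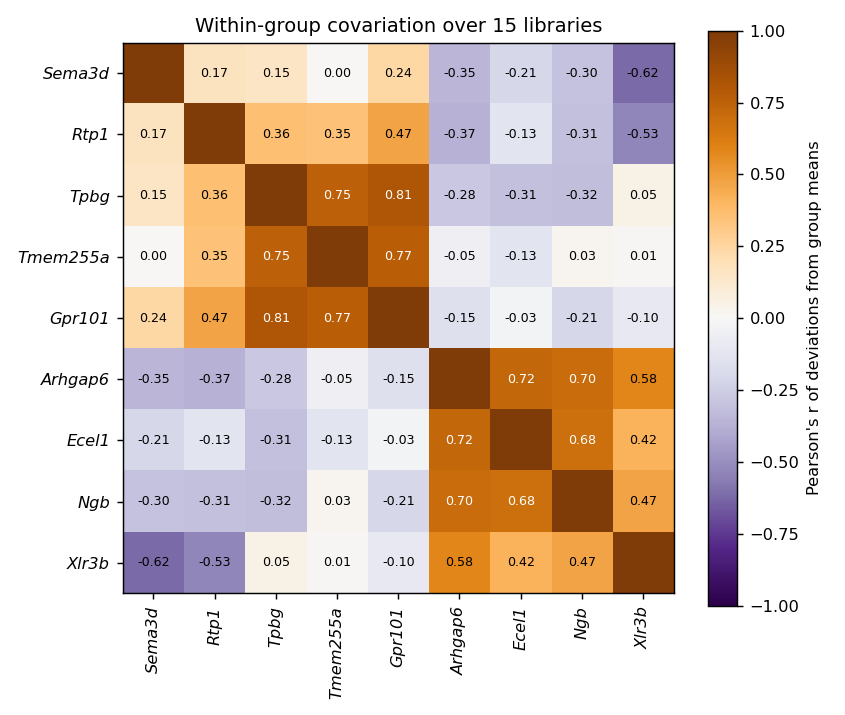
Pearson's r between the genes' deviations of log2 CPM from their group means over 15 libraries, with each value printed in its cell (orange above 0, purple below 0). Tpbg, Tmem255a and Gpr101 form a block of 0.75 to 0.81, and Arhgap6, Ecel1 and Ngb a block of 0.68 to 0.72; without WT replicate 5, r across these blocks reaches 0.54.

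Sex was the first of the measures that the choice of genes did not use. Of the 9 genes 4 lie on the X chromosome, against 3.35% of the 18870 tested genes with an annotated place: Tmem255a (X:38196573-38252439), Gpr101 (X:57496668-57503757), Xlr3b (X:73192207-73202930) and Arhgap6 (X:168795099-169304435), all in GRCm38. The female minus male log2 difference of these 4, with group in the model, was -0.04 (SE 0.07), 0.16 (SE 0.20), -0.58 (SE 0.30) and -0.30 (SE 0.12). None of the 9 passed edgeR's test over all genes, and 0.0316% of all genes did. Ngb was lower in females by the smallest p (-0.69, SE 0.18, unadjusted p = 0.00150, adjusted p = 0.593 in edgeR). Rtp1 (0.87, SE 0.31) and Arhgap6 were the others with an unadjusted p under 0.05 (5.02% of all genes), and DESeq2 called none of the 9 (0.0950% of its genes). WT mice were 4 females and 1 male, the male being WT replicate 5, and treated mice 2 females and 3 males. Without WT replicate 5 the sex estimates of Ngb, Rtp1 and Arhgap6 were -0.49 (SE 0.21), 0.65 (SE 0.34) and -0.23 (SE 0.14).

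The autosomal members are Sema3d (5:12383385-12588948), Tpbg (9:85842380-85847040), Rtp1 (16:23429133-23433960), Ecel1 (1:87147655-87156521) and Ngb (12:87097531-87102539). Overlapping genes are annotated at Sema3d, Tpbg, Tmem255a and Xlr3b as well as at Arhgap6. Gpr101, Rtp1, Ecel1 and Ngb overlap none.

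Relatives of the 9 genes were looked up to see whether a family moved with its member. Of 13 other semaphorin pathway genes (class 3 ligands, neuropilins and A-type and D1 plexins), edgeR called none in any of the 3 group comparisons, and DESeq2 called 1, Sema3c, lower in treated against PBS-given APP-PS1 mice. In that comparison 7 of the 13 had higher and 6 lower estimates, with a median log2 fold change of 0.01, beside 0.02 for all genes. Sema3c, a ligand more abundant than Sema3d, was at 37.2 ± 3.32, 39.9 ± 4.21 and 32.8 ± 1.12 CPM in WT, PBS-given and treated mice (SD, n = 5), and Sema3a at 6.13 ± 0.847, 7.08 ± 1.42 and 4.79 ± 1.22 CPM. Sema3e, the most abundant ligand of the list, was at 97.1 ± 17.4, 102 ± 13.9 and 97.1 ± 14.8 CPM. Sema3c and Sema3a had the order of Sema3d in their means, whereas Sema3e had equal means in WT and treated mice.

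Among 20 tested Wnt receptors and regulators, the company of Tpbg, none was called between the APP-PS1 groups by edgeR or DESeq2 (median 0.03). Dkk2, a secreted Wnt regulator, was called higher in both comparisons with WT, at 0.958 ± 0.351, 1.89 ± 0.680 and 1.68 ± 0.830 CPM in WT, PBS-given and treated mice. Of 28 other orphan receptors none was called in the 3 group comparisons by either tool, with a median of 0.05 between the APP-PS1 groups. Tmem255b, the only paralogue of Tmem255a in the list, was at 1.90 ± 0.763, 2.12 ± 0.877 and 2.01 ± 0.922 CPM and was not called. Of 45 tested RhoGAP genes none was called between the APP-PS1 groups, and Arhgap45, a RhoGAP of blood cells, was called higher in both comparisons with WT (8.12 ± 0.356, 11.2 ± 2.41 and 12.6 ± 2.56 CPM). DESeq2 also called Stard8 higher in treated than in WT mice.

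The relatives of Rtp1 went the other way or were scarce. Rtp4, an interferon-induced member, was at 2.04 ± 0.253 CPM in WT, 2.37 ± 0.382 CPM in PBS-given and 4.31 ± 1.60 CPM in treated mice, and was called higher in treated than in WT mice (log2 fold change 1.10). Between the APP-PS1 groups its estimate was 0.86, called by DESeq2 and not by edgeR. Rtp2 and Rtp3 stayed at or below 0.401 CPM on average in every group. In the Xlr family 5 of 9 other genes passed the filter, all 5 with a lower estimate in treated than in PBS-given APP-PS1 mice (median -1.04). None was called there by edgeR or DESeq2. In each group 4 of the 9 had 3 counts or fewer summed over its libraries. Treated means of Xlr4a and Xlr4b were near the level of 3 counts in 1 library, 0.0824 to 0.166 CPM. The family's sum in PBS-given APP-PS1 mice ran from 3.44 to 10.3 CPM, the highest in replicate 5. Xlr4a was at 0.743 ± 0.646, 0.707 ± 0.598 and 0.184 ± 0.237 CPM and Xlr4b at 0.857 ± 0.620, 0.631 ± 0.846 and 0.196 ± 0.165 CPM in WT, PBS-given and treated mice. Xlr3a, which shares the most windows with Xlr3b, was at 0.988 ± 0.250, 1.36 ± 1.08 and 0.881 ± 0.542 CPM, and Xlr, which DESeq2 called higher in both comparisons with WT, at 1.28 ± 0.384, 2.24 ± 0.621 and 2.04 ± 0.470 CPM.

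For Ecel1, the other M13 peptidases include neprilysin (Mme), which degrades amyloid beta, and the endothelin-converting enzymes. Of 6 listed, 5 passed the filter and edgeR called none in the 3 group comparisons, with a median of 0.07 between the APP-PS1 groups. DESeq2 called Mme higher in PBS-given APP-PS1 mice and Ece2 higher in treated mice, each against WT. Mme was at 8.91 ± 1.49 CPM in WT, 11.4 ± 0.673 in PBS-given and 9.42 ± 0.628 in treated mice, Ece1 at 35.0 ± 3.46, 34.3 ± 1.81 and 37.1 ± 2.02 CPM, and Ece2 at 39.2 ± 3.23, 42.8 ± 2.40 and 44.8 ± 1.59 CPM. Neither endothelin-converting enzyme was lower in treated mice. The 6 other globins were not called by either tool, and Cygb, cytoglobin, was at 37.0 ± 2.61, 32.9 ± 1.97 and 35.7 ± 0.630 CPM.

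Tissue markers were read beside the genes because the dissected region is not named. Gpr101 is known from the hypothalamus, and hypothalamic transcripts were near 0: 22 matched markers, peptides such as Hcrt and Oxt among them, summed to between 11.5 and 26.3 CPM, 11 passed the filter, and Npvf was at 0 in both APP-PS1 groups. Against WT, edgeR called 1 of these 11 higher and 1 lower in treated mice (Pmch and Irs4). None of the 9 genes passed the test of a slope on the mean log2 CPM of these markers in edgeR or DESeq2, where 0% and 0.112% of their genes passed. Of the 11 markers themselves, edgeR called none on this slope and DESeq2 called 1. Their median slope was 1.25, against 7.74 for 15 choroid plexus markers, all 15 upward. The slope therefore cannot tell hypothalamus from choroid plexus, and the lack of calls decides nothing. Ecel1 was the only one of the 9 at an unadjusted p under 0.05 (slope 1.40, SE 0.61, adjusted p = 0.615 in edgeR), with 7.68% of all genes. Hippocampal markers such as Prox1 and Wfs1 summed to 671 to 898 CPM. All 5 tested cerebellar markers had lower estimates in treated than in PBS-given APP-PS1 mice (median -1.10) and WT mice (median -0.51), none called. Of 10 striatal markers 8 and 10 were lower in these comparisons (medians -0.13 and -0.26), with 1 called by DESeq2 against WT. Of 10 cortical markers 6 were higher in each (medians 0.02 and 0.01). Of the 9 interneuron markers, edgeR called 1 and DESeq2 3 lower in each comparison with WT.

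Choroid plexus transcripts varied widely inside every group. All 15 markers had lower estimates in treated than in PBS-given APP-PS1 mice (median -1.87) and than in WT mice (median -2.37), none was called, and none was at 0. Their summed level ran from 84.9 to 7580 CPM in WT, from 86.2 to 4860 CPM in PBS-given and from 69.4 to 2220 CPM in treated mice, with the highest value in WT replicate 5. Inside the groups Arhgap6 (r = 0.66), Ecel1 (0.53) and Ngb (0.44) went up with these markers and Rtp1 went down (-0.47). In the slope test none of the 9 was called, against 2.03% of all genes in edgeR and 2.69% in DESeq2. Arhgap6 had an unadjusted p of 0.0196 (slope 0.07, SE 0.03, adjusted p = 0.324 in edgeR), with 10.8% of all genes under 0.05. With the choroid plexus level in the model, the treated minus PBS-given estimates of Arhgap6, Ecel1 and Ngb were -0.60 (SE 0.12), -0.56 (SE 0.25) and -0.39 (SE 0.22). Without the 5 libraries rich in Ttr they were -0.69, -0.84 and -0.35.

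Transcripts that mark the ventral part of the hippocampus moved with Tmem255a, Gpr101 and Tpbg. This list of 7 genes (Dcn, Trhr, Coch, Grp, Gpc3, Nr2f2 and Dlk1) and a list of 6 for the dorsal part (Wfs1, Lct, Iyd, Tdo2, Spink8 and Cabp7) were drawn up after the data had been seen, so they get no test here. All 7 ventral markers had lower estimates in treated mice, with medians of -0.62 against PBS-given APP-PS1 mice and -0.69 against WT, and edgeR called 0 and 1 of them (DESeq2 2 and 1). All 6 dorsal markers had higher estimates than in PBS-given APP-PS1 mice (median 0.31), 3 of them called by DESeq2 and 0 by edgeR. Against WT mice 4 were higher and 2 lower (median 0.09), and all 6 were lower in PBS-given APP-PS1 than in WT mice (median -0.11). These 6 belong to the list of 12 hippocampal markers, of which 11 were higher in treated than in PBS-given APP-PS1 mice (median 0.25). Of the same 12, 11 were lower in PBS-given APP-PS1 than in WT mice (median -0.11). Summed ventral levels were 113 to 184 CPM in WT, 142 to 198 CPM in PBS-given and 46.1 to 137 CPM in treated mice, and dorsal levels 359 to 400, 301 to 364 and 357 to 456 CPM. No marker of either list was at 0. The lowest ventral level in WT mice was that of WT replicate 5, and the lowest of all that of treated replicate 3, which also had the highest dorsal level (456 CPM) and the lowest Tpbg, Tmem255a and Gpr101. Dcn is also a transcript of fibroblasts, and its level was 75.1 ± 18.2, 85.2 ± 14.3 and 40.3 ± 17.8 CPM in WT, PBS-given and treated mice (SD, n = 5). Of 10 fibroblast and mural markers, Dcn among them, 9 had lower estimates in treated than in PBS-given APP-PS1 mice (median -0.51; DESeq2 called Dcn, edgeR none) and 8 than in WT mice (median -0.14). Their summed level was 325 to 452 CPM in WT, 310 to 501 CPM in PBS-given and 285 to 407 CPM in treated mice. All 7 ependymal markers had lower estimates than in both groups (medians -0.44 and -0.74, none called), with sums of 17.8 to 65.8, 18.0 to 38.2 and 7.88 to 28.5 CPM. No marker of these 2 lists was at 0, and their part in the results was not tested.

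**Figure D4:**
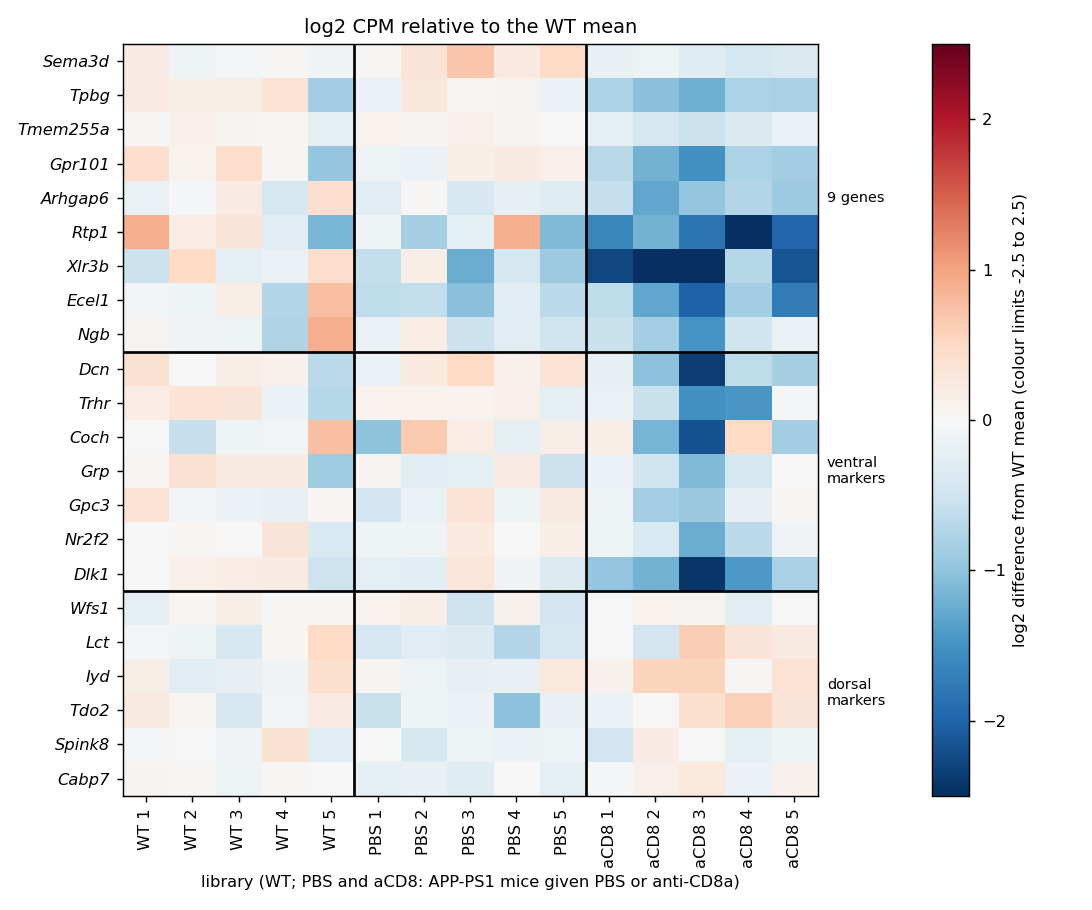
Log2 CPM of the 9 genes, the 7 ventral and the 6 dorsal hippocampal markers (rows) in each library (columns), relative to the WT mean (colour, limits -2.5 to 2.5, blue lower and red higher). All treated replicates, WT replicate 5 and APP-PS1 PBS replicates 1 and 2 are below the WT mean for most ventral markers, many of them faintly. Treated replicate 3 has the deepest blue.

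Inside the groups the deviations of Tmem255a went with those of the ventral markers (Pearson's r = 0.79, Spearman's rho = 0.71), as did those of Gpr101 (0.72, rho 0.76) and Tpbg (0.60, rho 0.63). Without the 2 libraries farthest from the median ventral deviation, treated replicates 1 and 3, r was 0.75, 0.74 and 0.72. For the other 6 genes r lay between 0.06 and 0.29, and without those 2 libraries between -0.57 (Ecel1) and 0.37 (Sema3d), with Arhgap6 and Ngb at -0.23. With the ventral level in the model, the treated minus PBS-given estimate was -0.37 (SE 0.18) for Gpr101, -0.51 (SE 0.21) for Tpbg and -0.21 (SE 0.07) for Tmem255a, against -1.02, -0.96 and -0.40 without it. The estimates of Arhgap6 (-0.71, SE 0.20), Xlr3b (-1.56, SE 0.51), Ngb (-0.41, SE 0.30) and Ecel1 (-0.56, SE 0.38) differed little from those without it, Sema3d was at -0.52 (SE 0.15) and Rtp1 at -1.31 (SE 0.48). Against WT the estimates with the ventral level were -0.18 (SE 0.21) for Gpr101, -0.40 for Tpbg and -0.13 for Tmem255a, but -1.09 (SE 0.21) for Arhgap6, -2.36 (SE 0.53) for Xlr3b, -1.40 (SE 0.38) for Ecel1 and -0.98 (SE 0.30) for Ngb, about as large as without it. The SEs of these 4 were larger than without it, and edgeR called 0 of the 9 genes and 19 of all genes instead of 8 and 369. The markers themselves differ between the groups, and their part in the group differences was not tested. Their list was drawn up after the data had been seen. It holds Grp, the gene most like Tmem255a (r = 0.92), and 2 genes that DESeq2 called lower between the APP-PS1 groups. Correlation with the list, and smaller estimates with it in the model, were therefore partly built in and support nothing further. Thalamic markers, highest in treated replicate 4 (528 CPM, against 130 to 299 CPM in the other 14), left the estimates within 0.07 of those without them.

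**Figure D5:**
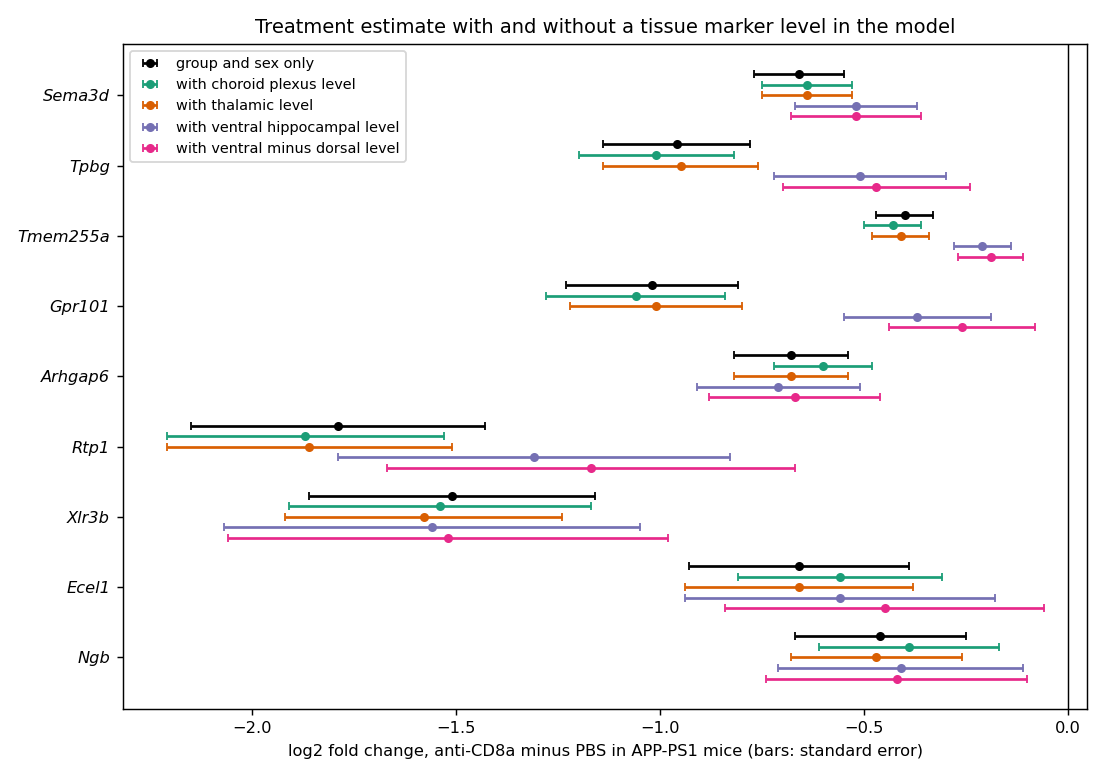
Treated minus PBS-given log2 fold change of each gene in APP-PS1 mice (x axis, bars give the standard error) from the model of group and sex and from models with a tissue marker level added (colours). For Gpr101 the estimate is -1.02 without a marker level, -1.06 with choroid plexus and -0.37 with ventral hippocampal markers, while for Xlr3b it stays between -1.51 and -1.58. The ventral and dorsal lists were drawn up after the data had been seen.

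The genes whose deviations were most like each member's were listed over the same 15 libraries, among 15682 tested genes with a mean of at least 1 CPM. For Tmem255a they were Grp (r = 0.92), the gene of gastrin-releasing peptide and a ventral marker above, Efnb2 (0.90), an ephrin ligand, and Cadm1 (0.88), a cell adhesion molecule. Gpr101 (0.89) and Tpbg (0.86) both had Dnajc27 first, followed by Dleu7 and Cort for Gpr101 and by Slc7a3 and Trim62 for Tpbg. The treated minus PBS-given estimates were -0.26, -0.26 and -0.25 for Grp, Efnb2 and Cadm1. They were 0.02 for Dnajc27, -0.30 for Dleu7, -0.04 for Cort, -0.44 for Slc7a3 and 0.02 for Trim62. Sema3d was most like Fn1 (0.81), fibronectin, and Alcam (0.81) and Pcmtd1 (0.78). The treated minus PBS-given estimates of Fn1, Alcam and Pcmtd1 were -0.30, -0.24 and -0.16.

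Rtp1 was most like Pck2 (0.91), Plin4 (0.89), which coats lipid droplets, and Mfsd2a (0.89), a lipid transporter. Plin4 had a treated minus PBS-given estimate of -1.47, beside -1.79 for Rtp1, whereas those of Mfsd2a and Pck2 were -0.43 and 0.09. Arhgap6 was most like Klhdc8b (0.92), Tfeb (0.90) and Ltbp3 (0.89), with estimates of -0.03, 0.25 and -0.15. Xlr3b had Hexim2 (0.90), Hmga1 (0.90) and Stmn4 (0.86), Ecel1 had Ptgfrn (0.86), Rtl5 (0.85) and Fzd1 (0.85), and Ngb had Ngfr (0.85), a neurotrophin receptor, and 5730507C01Rik (0.80). The treated minus PBS-given estimates of these 8 genes lay between -0.25 and 0.25.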

How the data were processed

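Poly(A) RNA of brain tissue was sequenced with a stranded kit, per the labels' protocols. The authors deposited 1 table of raw read counts per gene. The submitters' processing notes name Bowtie2 2.2.2 and HTSeq 0.11.2, besides FastQC and DESeq2, and the mouse build GRCm38. Bowtie2 is not a spliced aligner, so reads over exon junctions can be lost. Annotation release and strand setting: not given in the sources used here. Library sizes leave out the 5 HTSeq summary lines, which name no gene: reads without a feature were 20.0 to 25.9%, ambiguous reads 1.64 to 1.79% and reads not uniquely aligned 2.70 to 2.92%. Of the identifiers, 45143 matched a symbol. Places come from GENCODE M21 and promoters from RefSeq.

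Tests used edgeR 4.0.16 in R 4.3.3 (quasi-likelihood, two-sided). They ran on 18974 genes that filterByExpr retained, with TMM scaling, all 15 libraries and a model of group and labelled sex (11 residual degrees of freedom, 10 for slopes on marker levels). Benjamini-Hochberg adjustment ran over all genes, with a threshold of 0.05. Standard errors were derived from the F statistic. Deviations are of log2 CPM with a prior count of 2. DESeq2 1.42.0 was an alternative. The method was tested on simulated data. No library was a duplicate: in 30 pairs within groups, chi-square over its degrees of freedom was 7.95 to 39.8. Each library is a separate mouse; replicate numbers follow accession order and pair nothing.

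The members, lists and tests were chosen with earlier results of these data known. Named genes are the 9 members, the most abundant 3 of each list or those called, every other member of families of up to 10 genes, and the 3 genes most like each member. Some are given as counts only, others were added to show a list, and a gene that the rule takes is not reported here.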

Additional observations from a re-analysis of the deposited data

Results flagged for a closer look

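In the WT group, Tpbg in replicate 5 was at 3.88 CPM, far below the next WT library at 7.85 CPM, a gap of 0.76 of the group's range. In the treated group, Xlr3b in replicate 4 was at 2.58 CPM, against 0.907 CPM in the next library, a gap of 0.80 of the range. The critical value of Dixon's test for 5 samples is 0.71. It was applied to 27 sets of 5 libraries (9 genes in 3 groups), of which 2 passed, and chance alone passes about 1 in 20. WT replicate 5 also had the highest choroid plexus level of the 15 libraries (7580 CPM summed) and the lowest ventral hippocampal level in its group (113 CPM). Treated replicate 4 had the highest thalamic level (528 CPM). The part of these levels in both values was not tested.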

How the results depend on the processing

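Estimates of the 9 genes in treated mice stayed below 0 in 261 of 261 alternative values against PBS-given APP-PS1 mice and in 261 of 261 against WT mice, a direction fixed by the choice of genes. Counts of called members in these comparisons were shaped by the same choice and support nothing further. Totals over all genes are given below for some settings only, so the other counts have no share beside them. Of the 9, edgeR called 0 between the APP-PS1 groups. The count was 7 with DESeq2, 6 with no filter on low counts, 1 with only the 2 groups compared, 3 without WT replicate 5 and treated replicate 3 together, and 0 to 3 with each library left out, 3 being without WT replicate 5 and 1 without APP-PS1 PBS replicate 5. Against WT it was 8, then 5 with only the 2 groups compared, 5 without the libraries above 1000 CPM of Ttr, 0 with the ventral markers as a covariate, 1 with ventral minus dorsal markers, 4 without WT replicate 5 and treated replicate 3 together, and 3 to 8 with each library left out. Between PBS-given APP-PS1 and WT mice it was 0, 1 with DESeq2, and 0 in each leave-one-out fit. The ventral alternatives and the paired omission were chosen after seeing the data. Over all genes, 0 calls between the APP-PS1 groups became 143 with DESeq2 and 13 with no filter, 369 against WT became 140 without treated replicate 3, 221 with only the 2 groups and 199 without the Ttr-rich libraries, and 195 between the PBS groups became 361 with DESeq2, 115 with no sex covariate and 98 without the Ttr-rich libraries.

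No call on sex or marker slopes changed for the 9 genes, but uncalled signs did. With the sex given by Xist and Y-linked transcripts, the female minus male estimate of Sema3d was -0.03, and the hypothalamic slopes of Rtp1 and Ngb were 0.08 and -0.01. Without the Ttr-rich libraries, Tpbg, Gpr101 and Ecel1 had sex estimates of -0.13, -0.20 and 0.04. Hypothalamic slopes were then 0.90 for Tpbg, 0.39 for Tmem255a, 0.68 for Rtp1 and 0.11 for Xlr3b, and choroid plexus slopes 0.07 for Gpr101, -0.34 for Arhgap6, 0.50 for Rtp1, -0.31 for Ecel1 and -0.18 for Ngb. With the summed hypothalamic level, Gpr101 had a slope of -0.20 and Xlr3b of 0.15, and with no sex covariate the choroid plexus slope of Xlr3b was 0.04. With each library left out, sex estimates ran from -0.20 to 0.19 for Tpbg, -0.14 to 0.01 for Tmem255a and -0.15 to 0.33 for Gpr101. Hypothalamic slopes ran from -0.88 to 0.24 for Tpbg, -0.21 to 0.21 for Tmem255a, -0.24 to 1.02 for Gpr101 and -1.83 to 0.72 for Rtp1. Choroid plexus slopes ran from 0.00 to 0.04 for Sema3d, -0.07 to 0.02 for Tpbg, -0.07 to 0.02 for Gpr101 and -0.07 to 0.04 for Xlr3b. The cause of these changes was not tested. No paired analysis was possible because the labels give each mouse its own number. Treated libraries held 12 to 49 counts of Rtp1, 17 to 75 of Xlr3b, 23 to 64 of Ecel1 and 23 to 74 of Ngb, so counting error adds to the spread of these genes.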
